A study of Sus scrofa with 12 samples.

Results

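The gene set described here is the sphingosine 1-phosphate (S1P) machinery of arterial endothelial cells (ECs), a list of 10 genes taken by name from a table of raw read counts for 21153 pig genes. Each gene was found through the pig Ensembl identifier that carries its symbol, and all 10 were present. The rule used gene names and no measured value, though the list was drawn up with earlier results of these data known. The list holds 3 receptors (S1PR1, S1PR2 and S1PR3), the kinases SPHK1 and SPHK2, the exporter SPNS2, and 4 enzymes that remove S1P (SGPL1, SGPP1, PLPP1 and PLPP3).

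S1P is a lipid messenger made when a sphingosine kinase phosphorylates sphingosine, a breakdown product of ceramide. ECs export it through SPNS2, and outside the cell it binds G protein-coupled receptors, among which S1PR1 tightens endothelial junctions and S1PR2 acts through the small GTPase RhoA. Inside the cell S1P is cleaved for good by the lyase SGPL1 or returned to sphingosine by the phosphatase SGPP1, whereas PLPP1 and PLPP3 are membrane enzymes that can strip the phosphate from S1P and lysophosphatidate on the outer face. In vessels this pathway is known for its part in barrier function and in the sensing of flow.

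RNA was sequenced from 12 cultures of primary porcine ECs, which the labels call aortic and the methods of the study coronary arterial. The cells came from 3 slaughterhouse pigs (replicates 1 to 3), 8 months old per the methods, and were grown in DMEM with serum and heparin. They were seeded on gelatin-coated flow slides and exposed for 48 h to laminar wall shear stress (WSS) of 2 dyne/cm2 (low), 30 dyne/cm2 (physiological) or 80 dyne/cm2 (supra-high). At 30 dyne/cm2 each pig gave 2 cultures, called here set 1 and set 2, because, per the series' design text, low and supra-high WSS were run in different types of slide, at different seeding densities, each with its own control at 30 dyne/cm2. The methods of the study name only 1 slide type and 1 seeding density. No group received any other treatment named in the labels. Each group thus holds 3 libraries, 1 from each pig, and every same-numbered library carries the same donor code. Cultures at 2 dyne/cm2 were compared with set 1 and those at 80 dyne/cm2 with set 2. Since the sample titles do not say which set shares which slide, fold changes of the tested S1P genes were also computed with the other set. For most other named genes this was done in the single comparisons but not for differences between responses. It was not done for markers of cell types, genes chosen for likeness to S1PR1 or genes with overlapping spans.

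Total counts lay between 29606854 and 41058902 per library. Levels are given below as CPM, the reads of a gene scaled to a common library size, always in the order of replicates 1, 2 and 3. They depend on gene length, so levels were compared between libraries and not between genes. Fold changes come from edgeR's quasi-likelihood test with the pig as a block, n = 3 pigs, with p adjusted by the Benjamini-Hochberg method over all genes tested. A gene is said to have risen or fallen where this adjusted p was under 0.05, and ± is followed by the standard error.

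Low WSS changed most of this machinery. Of the 9 genes with enough reads to be tested, 6 passed at 2 dyne/cm2, where SPHK1, SPNS2, S1PR1, PLPP1 and PLPP3 fell and SPHK2 rose. Among all 11226 genes tested in this comparison 25.8% passed, 12.4% as lower and 13.4% as higher. A change of at least 2-fold was also reached by 4 of the 9, all lower, beside 9.6% of all genes in either direction and 4.54% as lower. In 5 of the 9 the values at 2 dyne/cm2 and in set 1 did not overlap, beside 37.8% of all genes, and 6 of the 9 moved the same way in the 3 pigs, beside 65.9%. The median log2 fold change of the 9 genes was -0.47, against 0 over all genes, and their median absolute change was 0.97 against 0.27. The plot of CPM by culture shows the levels behind these counts.

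**Figure D1:**
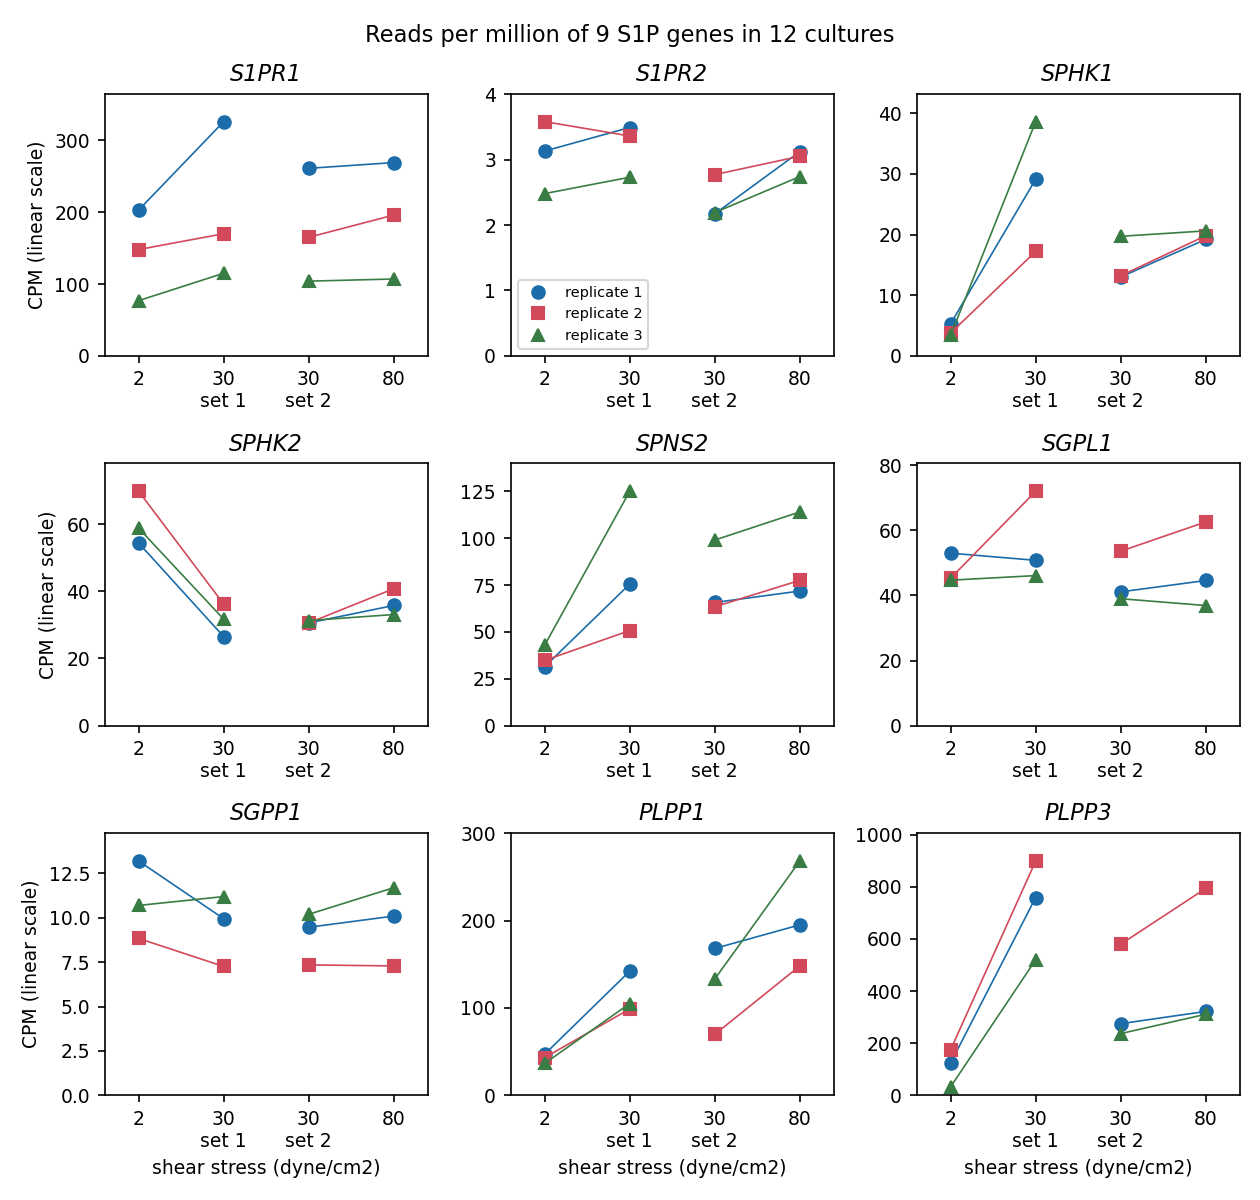
CPM (linear axes from 0) of the 9 tested genes in each culture, with WSS in dyne/cm2 on the horizontal axis; each symbol is 1 culture, and lines join the cultures of 1 pig within a comparison. SPHK1, SPNS2, PLPP1 and PLPP3 lie lower at 2 dyne/cm2 than in any culture at 30 dyne/cm2, SPHK2 lies higher, and SPHK1 and PLPP3 are lower in set 2 than in set 1 in all 3 pigs.

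The 2 sphingosine kinases moved in opposite directions at low WSS. SPHK1, on chromosome 12 (5114946 to 5122580, Sscrofa11.1), encodes the mainly cytosolic kinase. Its level was 5.29, 3.77 and 3.37 CPM at 2 dyne/cm2 and 29.1, 17.2 and 38.6 CPM in set 1, with no overlap between the groups. SPHK1 fell by 2.70 ± 0.28 on the log2 scale (6.48-fold lower, adjusted p = 0.00704), and it did so in each of the 3 pigs, with differences of -2.45, -2.17 and -3.50. The pig with the highest SPHK1 level in set 1, replicate 3, had the lowest at 2 dyne/cm2. The SD between pigs shrank with the level, from 10.7 CPM around a mean of 28.3 in set 1 to 1.01 CPM around a mean of 4.14 at 2 dyne/cm2.

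SPHK2, on chromosome 6 (53982911 to 53986779), encodes the kinase that is also found in the nucleus and in mitochondria. It stood at 54.4, 69.8 and 58.8 CPM at 2 dyne/cm2 and at 26.5, 36.2 and 31.7 CPM in set 1. Every culture at 2 dyne/cm2 lay above every culture at 30 dyne/cm2. The rise of 0.97 ± 0.08 on the log2 scale (1.97-fold higher, adjusted p = 0.00521) was just short of 2-fold. SPHK2 was the only 1 of the 9 genes that rose at low WSS.

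The balance of reads between the 2 kinases was computed after their values had been seen and is therefore given without a test. For each read of SPHK2 there were 0.0972, 0.054 and 0.0573 reads of SPHK1 at 2 dyne/cm2, and 1.1, 0.475 and 1.22 reads in set 1. Set 2 had 0.426, 0.432 and 0.631, and the cultures at 80 dyne/cm2 had 0.535, 0.486 and 0.623. The 3 cultures at 2 dyne/cm2 thus lay below the other 9, and the cultures at 80 dyne/cm2 fell within the range of the cultures at 30 dyne/cm2. Because the transcripts differ in length, the ratio compares cultures and does not say which kinase was the more abundant.

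**Figure D2:**
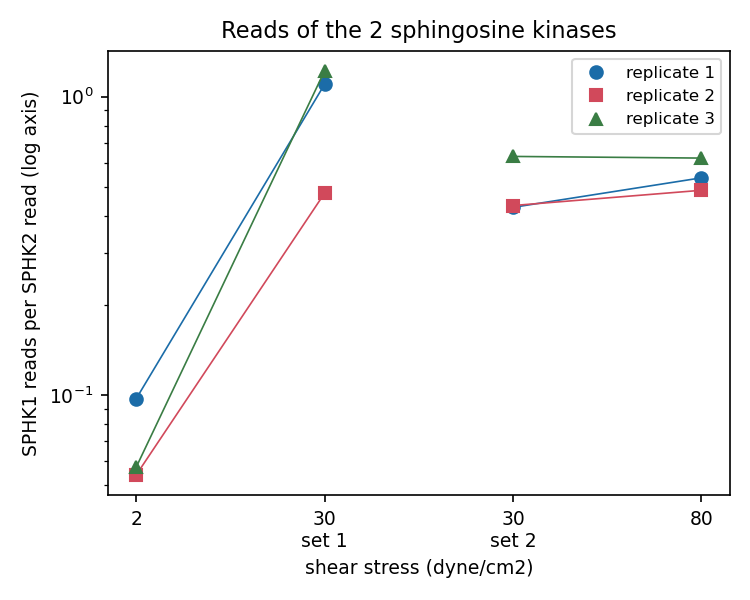
Reads of SPHK1 per read of SPHK2 (log axis) in each of the 12 cultures against WSS in dyne/cm2; symbols are single cultures and lines join cultures of 1 pig within a comparison. The cultures at 2 dyne/cm2 lie between 0.054 and 0.0972, and all others between 0.426 and 1.22.

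SPNS2, the transporter that carries S1P out of the endothelium, lies on chromosome 12 (50454051 to 50491172). Its level was 31.4, 34.8 and 42.9 CPM at 2 dyne/cm2 against 75.5, 50.7 and 125 CPM in set 1, without overlap. SPNS2 fell by 1.11 ± 0.20 on the log2 scale (2.15-fold lower, adjusted p = 0.0214). This call depended on how the pigs were handled: without the replicate block the adjusted p was 0.071, and without replicate 3 it was 0.0583 at a log2 fold change of -0.89. By its RefSeq span the SPNS2 locus overlaps MYBBP1A, whose own log2 fold change was 0.38 (adjusted p = 0.0529). The library kit named in the labels does not mark strand, so reads from exon sequence that overlapping genes share cannot be told apart. Gene spans include introns, whereas reads were counted over exons, and whether exons overlap was not examined. Spans of S1PR1, S1PR3, SGPL1, SGPP1 and PLPP1 overlap other annotated genes as well. PCBD1, which overlaps SGPL1, rose at 2 dyne/cm2 (0.41, adjusted p = 0.0484) but did not pass at 80 dyne/cm2 (-0.14, adjusted p = 0.4126). SYNE2, which overlaps SGPP1, fell at 80 dyne/cm2 (-0.43, adjusted p = 0.0264) but did not pass at 2 dyne/cm2 (-0.28, adjusted p = 0.2921).

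S1PR1, the main S1P receptor of ECs, lies on chromosome 4 (117064632 to 117069724). It stood at 203, 148 and 76.9 CPM at 2 dyne/cm2 and at 326, 170 and 115 CPM in set 1. The groups overlapped, because the pigs differed by more than the conditions: within a group the highest culture was 2.52 to 2.84 times the lowest. Within pigs the level was lower in all 3, with log2 differences of -0.68, -0.20 and -0.58. S1PR1 fell by 0.47 ± 0.12 on the log2 scale (1.39-fold lower, adjusted p = 0.0444), the smallest change among the 6 genes that passed. Without the replicate block its adjusted p was 0.519, and it was 0.192 without replicate 1 and 0.131 without replicate 3.

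The other receptors were scarce. S1PR2, on chromosome 2 (69050396 to 69057270), stood at 3.13, 3.58 and 2.48 CPM at 2 dyne/cm2 and at 3.49, 3.36 and 2.73 CPM in set 1, a log2 difference of -0.05 ± 0.17 (adjusted p = 0.837). S1PR3, on chromosome 14 (659314 to 674969), had 8 reads in all 12 libraries together, with 2 in 1 library at 2 dyne/cm2, 5 in 1 of set 1, 1 in 1 at 80 dyne/cm2 and 0 in the remaining 9. All of these reads came from replicate 1. A count of 3, the limit that a count of 0 allows, corresponds to 0.0743 to 0.099 CPM in these libraries, and intervals of this kind cover counting error only. S1PR3 was not tested, and a change in it was not detectable at this depth.

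Of the enzymes that remove S1P, both ecto-phosphatases fell. PLPP3, on chromosome 6 (155800838 to 155894919), is the form best known from endothelium under flow. It stood at 124, 175 and 32.6 CPM at 2 dyne/cm2 and at 759, 899 and 520 CPM in set 1, with no overlap. PLPP3 fell by 2.96 ± 0.36 on the log2 scale (7.77-fold lower, adjusted p = 0.00886), the largest change among the 9 genes in this comparison. In replicate 3 the difference was -3.99, against -2.61 and -2.36 in the other pigs, and the highest culture at 2 dyne/cm2 was 5.37 times the lowest.

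Its relative PLPP1, on chromosome 16 (34604367 to 34741524), stood at 47.0, 43.1 and 36.5 CPM at 2 dyne/cm2 and at 142, 98.8 and 105 CPM in set 1. The cultures at low WSS lay close together and below all others. PLPP1 fell by 1.43 ± 0.11 on the log2 scale (2.69-fold lower, adjusted p = 0.00409). SLC38A9, which shares part of its span, had a log2 fold change of 0.24 (adjusted p = 0.1288).

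The intracellular enzymes did not pass. SGPL1, the lyase that ends the pathway, lies on chromosome 14 (73696902 to 73781830) and stood at 53.0, 45.3 and 44.7 CPM at 2 dyne/cm2 against 50.8, 72.0 and 46.1 CPM in set 1. Within pigs the differences were 0.06, -0.67 and -0.04, and the log2 fold change was -0.20 ± 0.17 (adjusted p = 0.397). SGPP1, a phosphatase of the endoplasmic reticulum on chromosome 1 (194351971 to 194380910), stood at 13.2, 8.84 and 10.7 CPM against 9.95, 7.26 and 11.2 CPM in set 1. Its log2 fold change was 0.22 ± 0.14 (adjusted p = 0.27). The groups overlapped for both genes.

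Supra-high WSS gave 1 call. PLPP1 rose at 80 dyne/cm2 and the other 8 tested genes did not pass, beside 8.4% of all 11187 genes tested that passed and 4.36% that passed as higher. None of the 9 passed with a change of at least 2-fold, beside 2.2% of all genes. At an unadjusted p under 0.05 there were 5 of 9, beside 26.1% of all genes. All 9 fold changes were above 0 in this comparison, and 7 of the 9 genes were higher in each of the 3 pigs. Of all genes, 49.4% moved the same way in 3 pigs, counting both directions, and the share that was higher was not computed. These signs depend on the control: with set 1 in place of set 2, S1PR1, S1PR2, SPHK1, SGPL1 and PLPP3 had fold changes below 0. The count over all genes moved widely with the design, from 940 to 2080 of 11353 without replicate 1, 371 without replicate 2 and 184 without replicate 3. With DESeq2 1150 passed and with no filter on low counts 1359. Against set 1, 26 of 11128 genes passed, and without the replicate block 0 of 11187 did in edgeR, with 929 at an unadjusted p under 0.05. The median log2 fold change was 0.24, against -0.01 over all genes.

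PLPP1 stood at 195, 148 and 268 CPM at 80 dyne/cm2 and at 168, 69.7 and 133 CPM in set 2. The groups overlapped, with replicate 1 of set 2 above replicate 2 at 80 dyne/cm2. Within pigs the log2 differences were 0.22, 1.09 and 1.01, so replicate 1 responded least. The rise was 0.77 ± 0.17 on the log2 scale (1.71-fold higher, adjusted p = 0.0332). This call was lost in several alternatives: the adjusted p was 0.641 without the replicate block, 0.128 without replicate 2, 0.217 without replicate 3 and 0.149 against set 1, where the log2 fold change was 0.79.

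PLPP3 stood at 322, 794 and 311 CPM at 80 dyne/cm2 against 275, 580 and 237 CPM in set 2, higher in each pig. Its log2 fold change of 0.35 ± 0.10 did not pass (adjusted p = 0.0648). SPHK1 stood at 19.2, 19.8 and 20.6 CPM against 13.0, 13.2 and 19.7 CPM, with a log2 fold change of 0.39 ± 0.13 (adjusted p = 0.112). The 3 cultures at 80 dyne/cm2 lay close together (SD 0.714 CPM), and replicate 3 of set 2 lay among them.

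SPHK2 stood at 35.8, 40.8 and 33.1 CPM at 80 dyne/cm2 against 30.6, 30.6 and 31.3 CPM in set 2. It was the 1 gene of the 9 whose groups did not overlap, beside 14.9% of all genes, and its log2 fold change was 0.24 ± 0.10 (adjusted p = 0.18). SPNS2 stood at 71.8, 77.5 and 114 CPM against 65.7, 63.4 and 99.0 CPM, a log2 difference of 0.20 ± 0.08 (adjusted p = 0.163). S1PR1 stood at 269, 196 and 107 CPM against 261, 165 and 104 CPM, a log2 difference of 0.11 ± 0.09 (adjusted p = 0.472). S1PR2, SGPL1 and SGPP1 had log2 fold changes of 0.32 ± 0.18, 0.08 ± 0.09 and 0.09 ± 0.12, with adjusted p between 0.302 and 0.649.

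**Figure D3:**
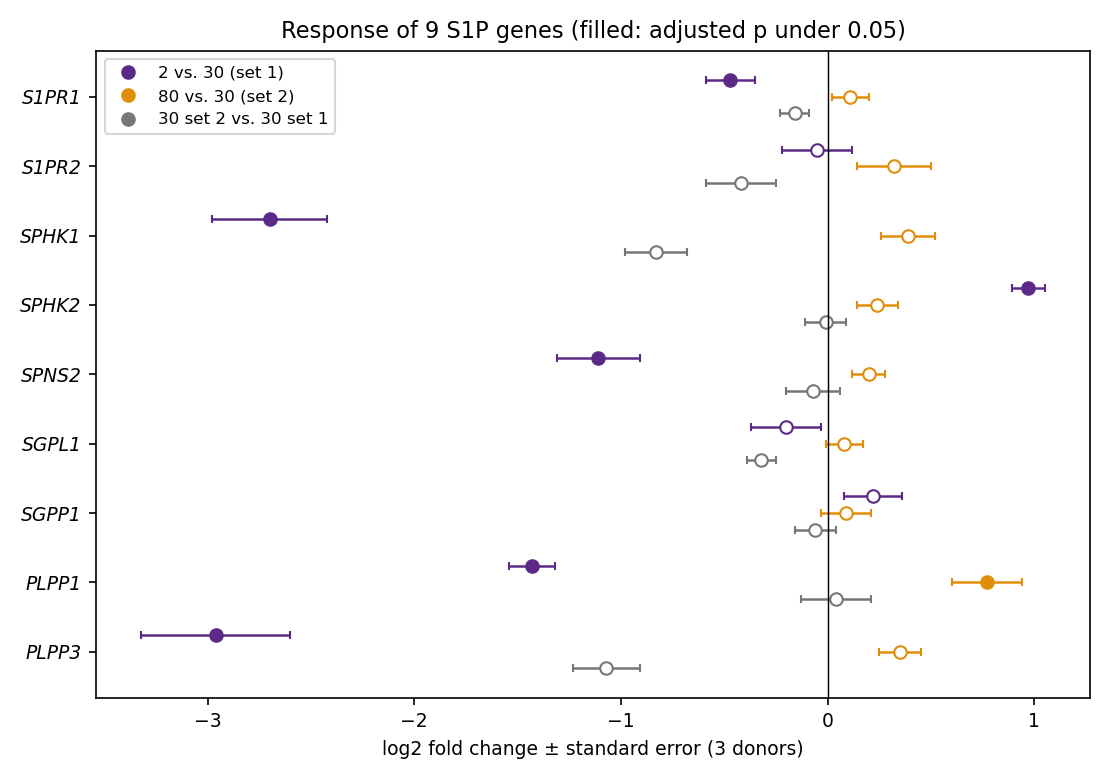
Log2 fold change with its standard error (bars, 3 pigs) for the 9 tested genes at 2 vs. 30 dyne/cm2 (set 1), at 80 vs. 30 dyne/cm2 (set 2) and between the 2 control sets; filled symbols have an adjusted p under 0.05. The values run from -2.96 (PLPP3) to 0.97 (SPHK2) at low WSS and, at 80 dyne/cm2, from 0.08 (SGPL1) to 0.77 (PLPP1).

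The response to low WSS was tested against the response to supra-high WSS in 1 model over the 12 libraries. The 6 genes that had passed at 2 dyne/cm2 passed here too, beside 37.1% of all 11568 genes tested. The difference of the log2 fold changes, low minus supra-high, was -3.26 ± 0.45 for PLPP3 (adjusted p = 0.000699), -3.08 ± 0.35 for SPHK1 (adjusted p = 0.000259) and -2.16 ± 0.33 for PLPP1 (adjusted p = 0.00112). It was -1.32 ± 0.22 for SPNS2 (adjusted p = 0.00166), -0.58 ± 0.13 for S1PR1 (adjusted p = 0.0092) and 0.74 ± 0.14 for SPHK2 (adjusted p = 0.00283). PLPP1 was the 1 gene that had passed in both single comparisons, lower at 2 dyne/cm2 and higher at 80 dyne/cm2. With the control sets exchanged, 4 of the 6 still passed, beside 22.2% of all genes. SPHK1 was then at -1.38 ± 0.34 (adjusted p = 0.019), SPHK2 at 0.77, SPNS2 at -1.13 and PLPP1 at -2.26, and the calls for S1PR1 (-0.23, adjusted p = 0.258) and PLPP3 (-1.09, adjusted p = 0.111) were lost.

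The 2 sets at 30 dyne/cm2 had the same WSS but not the same level of every gene. PLPP3 stood at 275, 580 and 237 CPM in set 2 and at 759, 899 and 520 CPM in set 1, lower in set 2 in each pig. Of the 9 genes, 5 were lower in set 2 in all 3 pigs, beside 44% of all genes that moved the same way in 3 pigs, counting both directions. SPHK1 was likewise lower in set 2 in each pig, at 13.0, 13.2 and 19.7 CPM against 29.1, 17.2 and 38.6 CPM. The log2 differences, set 2 minus set 1, were -1.07 ± 0.16 for PLPP3 (adjusted p = 0.0796) and -0.83 ± 0.15 for SPHK1 (adjusted p = 0.11). Neither passed, and at this threshold edgeR called 2 of 11163 genes (0.0179%) and 0 of the 9, of which 3 had an unadjusted p under 0.05, beside 19.2% of all genes. DESeq2 called both genes, as did the fit without a filter on low counts and the fit without replicate 2, where the values were -1.29 (adjusted p = 0.013) for PLPP3 and -1.05 (adjusted p = 0.014) for SPHK1. Per the series' design text, slide type and seeding density differ between the sets, and they cannot be told apart here.

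The size of the PLPP3 and SPHK1 responses moved with the choice of control set. Against set 2 in place of set 1, the value for PLPP3 at low WSS was -1.89 ± 0.34 (adjusted p = 0.0221) and that for SPHK1 -1.87 ± 0.26 (adjusted p = 0.0124). S1PR1, SPHK2, SPNS2 and PLPP1 also passed against set 2, with values of -0.31, 0.98, -1.04 and -1.46, so the same 6 genes were called. For 80 dyne/cm2 the sign turned in both, to -0.72 ± 0.20 (adjusted p = 0.201) and -0.44 ± 0.21 (adjusted p = 0.42).

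**Figure D4:**
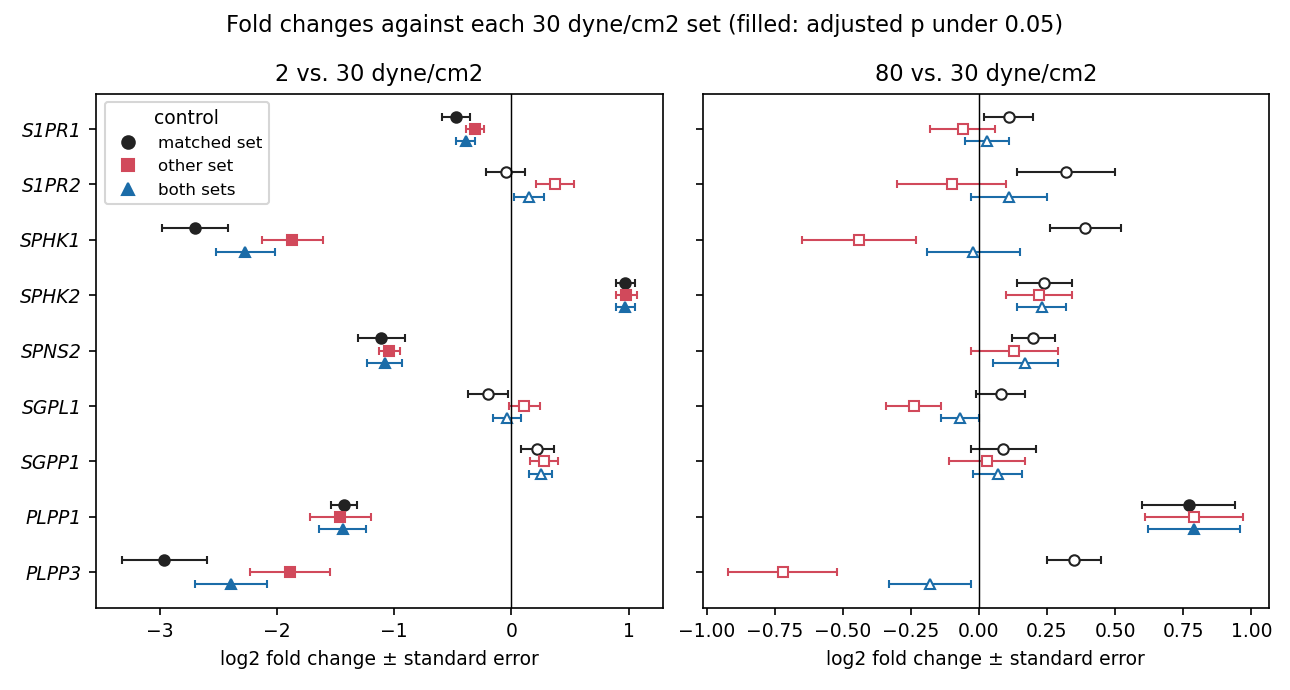
Log2 fold change with its standard error for the 9 tested genes at 2 dyne/cm2 (left) and 80 dyne/cm2 (right) against the matched control set, the other set or both sets; filled symbols have an adjusted p under 0.05, and the horizontal scales of the panels differ. The same 6 genes are filled for every control at low WSS, whereas at 80 dyne/cm2 PLPP3 goes from 0.35 to -0.72 and PLPP1 keeps a value of 0.77 to 0.79.

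The pigs kept their order for several of these genes. S1PR1 was highest in replicate 1 and lowest in replicate 3 in all 4 groups. PLPP3 was highest in replicate 2 and lowest in replicate 3 in all 4 groups, SPNS2 was highest in replicate 3, SGPL1 was lowest in replicate 3 and SGPP1 was lowest in replicate 2. SPHK1, SPHK2, S1PR2 and PLPP1 had no pig that was highest or lowest in all 4. The cultures at 2 dyne/cm2 form a cluster of their own, so correlations were computed over the other 9 cultures, after the mean of each pig had been removed. They are given as descriptions, since these cultures share pigs and control sets. Differences between the remaining groups were not removed. SPHK1, PLPP3 and S1PR1 were each lower in set 2 than in set 1 in every pig, and the correlations include this difference. SPHK1 and PLPP3 had r = 0.92 (rho = 0.95), S1PR1 and SPHK1 r = 0.85 (rho = 0.83), and S1PR1 and PLPP3 r = 0.83 (rho = 0.87). PLPP1 and PLPP3 had r = -0.2, and the 2 kinases r = -0.03.

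The genes whose pattern was most like that of S1PR1 were sought among 7675 genes with a symbol and a mean of at least 10 CPM, by Pearson's r of log2 CPM over the 12 cultures after removal of each pig's mean. The first 5 were MERTK (r = 0.989), PLEKHO1 and ARF6 (0.982 each), WDR74 (0.975) and LRRC8A (0.974). Over the 9 cultures without those at 2 dyne/cm2, which still include differences between groups, the values ran from 0.9 to 0.96. MERTK, a receptor tyrosine kinase used in the uptake of dying cells, fell by 1.36 on the log2 scale at low WSS (adjusted p = 0.0238), beside 0.47 for S1PR1.

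Around this core, 11 other receptors, carriers and enzymes of S1P were listed, of which 7 were tested at 2 dyne/cm2 and 8 at 80 dyne/cm2. In the first comparison 1 fell and none rose (14.3%, beside 25.8%), with a median log2 fold change of -0.02. In the second 0 of 8 passed, beside 8.4% of all genes. The gene that fell was ABCC1, a pump that can carry S1P, at -0.53 ± 0.11 (adjusted p = 0.0277), from a mean of 401 CPM in set 1 to 273 CPM, a call lost without replicate 1 (adjusted p = 0.128) or replicate 3 (adjusted p = 0.0738). MFSD2A, a lipid transporter of the endothelium, had values of -0.62 ± 0.34 (adjusted p = 0.222) at 2 dyne/cm2 and 0.88 ± 0.27 (adjusted p = 0.0888) at 80 dyne/cm2. The receptor S1PR4 (-0.02, adjusted p = 0.96) and the S1P carrier APOM (0.11, adjusted p = 0.607) did not pass at 2 dyne/cm2, and the receptor S1PR5 had at most 39 reads in a library and was not tested.

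Of 33 genes listed for the supply of sphingosine to the kinases, 22 were tested. Under low WSS 2 rose and 6 fell (36.4%, beside 25.8% of all genes), with a median log2 fold change of -0.21. ACER2, a Golgi ceramidase that frees sphingosine, rose by 2.21 ± 0.16 on the log2 scale (adjusted p = 0.00403), from 5.29 to 23.7 CPM on average, and SMPD3, which makes ceramide from sphingomyelin, rose by 1.61 ± 0.25 (adjusted p = 0.0149). Those that fell included SPTLC2, a subunit of the enzyme that starts sphingolipid synthesis (-0.86 ± 0.20, adjusted p = 0.0379), and RTN4, which restrains that enzyme (-0.97 ± 0.11, adjusted p = 0.00849). The lysosomal ceramidase ASAH1 (-0.20, adjusted p = 0.223) and the ceramide synthase CERS2 (-0.34, adjusted p = 0.0766) did not pass. Without the replicate block the adjusted p was 0.071 for SMPD3 and 0.0733 for SPTLC2. SMPD3 also did not pass without replicate 2 (adjusted p = 0.054), nor SPTLC2 without replicate 1 (adjusted p = 0.0708) or replicate 3 (adjusted p = 0.0811).

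Under supra-high WSS 3 of these 22 passed (13.6%, beside 8.4%), RTN4 as higher and SMPD3 and ASAH1 as lower. SMPD3 fell by 0.93 ± 0.10 on the log2 scale (adjusted p = 0.00467) and ASAH1 by 0.53 ± 0.08 (adjusted p = 0.0128), and RTN4 rose by 0.47 ± 0.10 (adjusted p = 0.0314). SMPD3 and RTN4 were thus called with opposite signs at low and supra-high WSS, as PLPP1 was. Their difference between the responses passed as well, at 2.55 ± 0.32 for SMPD3 (adjusted p = 0.000412) and -1.43 ± 0.16 for RTN4 (adjusted p = 0.000252). Against set 1 the values at 80 dyne/cm2 kept their signs but none of the 3 genes passed, with adjusted p of 0.36 for SMPD3, 0.461 for RTN4 and 0.294 for ASAH1. Without the replicate block none of them passed either (adjusted p = 0.418, 0.584 and 0.517). RTN4 was also lost without replicate 2 (adjusted p = 0.1), without replicate 3 (adjusted p = 0.2) and with dispersion from 12 libraries (adjusted p = 0.0592). SMPD3 was lost with that dispersion (adjusted p = 0.0552) and ASAH1 without replicate 3 (adjusted p = 0.12). The differences between responses were not recomputed with the sets exchanged.

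Genes that couple S1P receptors to the cell were tested for 21 of 28 listed. Under low WSS 1 rose and 6 fell (33.3%, beside 25.8% of all genes), with a median log2 fold change of -0.20 and a median absolute change of 0.25, against 0.27 over all genes. The GTPases that act behind these receptors were among those that fell, RHOA by 0.77 ± 0.10 (adjusted p = 0.00924) and RAC1 by 0.46 ± 0.11 (adjusted p = 0.0371) on the log2 scale. RAPGEF3, an exchange factor for the junction-tightening GTPase Rap1, fell by 1.01 ± 0.17 (adjusted p = 0.0181), and RGS4, a brake on G protein signals, by 1.33 ± 0.21 (adjusted p = 0.0159). Of the G protein subunits, GNAI1 fell by 0.63 ± 0.13 (adjusted p = 0.0263), while GNAI2 (-0.13, adjusted p = 0.374) and GNA13 (-0.25, adjusted p = 0.0668) did not pass. Against set 2 the calls for RGS4 (-0.07, adjusted p = 0.906) and GNAI1 (-0.10, adjusted p = 0.666) were lost. The subunit GNAQ also fell, and it kept its call against set 2 (-0.38, adjusted p = 0.0214). PLCB3, the 1 gene that rose, kept its own there (0.43, adjusted p = 0.0179). Neither GNAQ nor PLCB3 passed when any 1 pig was left out (adjusted p 0.0517 to 0.136). RAC1 did not pass when any 1 pig was left out (adjusted p 0.0725 to 0.174), nor RAPGEF3 without the replicate block (adjusted p = 0.0864).

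Under supra-high WSS 2 of these 21 rose and 1 fell (14.3%, beside 8.4%). RGS16, another brake on G protein signals, rose by 1.70 ± 0.19 on the log2 scale (adjusted p = 0.00467), from a mean of 17.4 to 57.1 CPM, and RGS4 by 0.83 ± 0.19 (adjusted p = 0.0386). GNAI1 fell by 0.86 ± 0.17 (adjusted p = 0.026), so it was lower under both extremes of WSS than in the matched controls. Its call at 80 dyne/cm2 was kept against set 1 (-1.4, adjusted p = 0.02). It was lost without the replicate block (adjusted p = 0.619), with the robust fit (0.0525), without replicate 2 (0.0727) and without replicate 3 (0.0512). Its call at 2 dyne/cm2 was also lost without the block (adjusted p = 0.366), without replicate 2 (0.0764) and without replicate 3 (0.0584). RHOA (0.20, adjusted p = 0.251) and RAC1 (0.18, adjusted p = 0.3) did not pass. Against set 1, RGS4 turned to -0.42 (adjusted p = 0.644) and RGS16 had a value of 0.61 (adjusted p = 0.474).

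Lysophosphatidate shares the PLPP enzymes with S1P, and of 12 genes listed for it only 4 were tested. ENPP2, the secreted enzyme that makes lysophosphatidate, rose at 2 dyne/cm2 by 1.03 ± 0.21 on the log2 scale (adjusted p = 0.0275), from a mean of 5.83 to 10.4 CPM. LPAR5, a lysophosphatidate receptor at a few CPM, rose at 80 dyne/cm2 by 1.21 ± 0.23 (adjusted p = 0.023) and had a value of -1.11 ± 0.36 (adjusted p = 0.0785) at 2 dyne/cm2. The call for ENPP2 was lost without the replicate block (adjusted p = 0.485), without replicate 1 (adjusted p = 0.0662) and without replicate 3 (adjusted p = 0.0665). That for LPAR5 was lost against set 1 (0.59, adjusted p = 0.392) and without the replicate block (adjusted p = 0.647). It was also lost without replicate 2 (adjusted p = 0.104), without replicate 3 (adjusted p = 0.195) and with dispersion from 12 libraries (adjusted p = 0.0945).

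**Figure D5:**
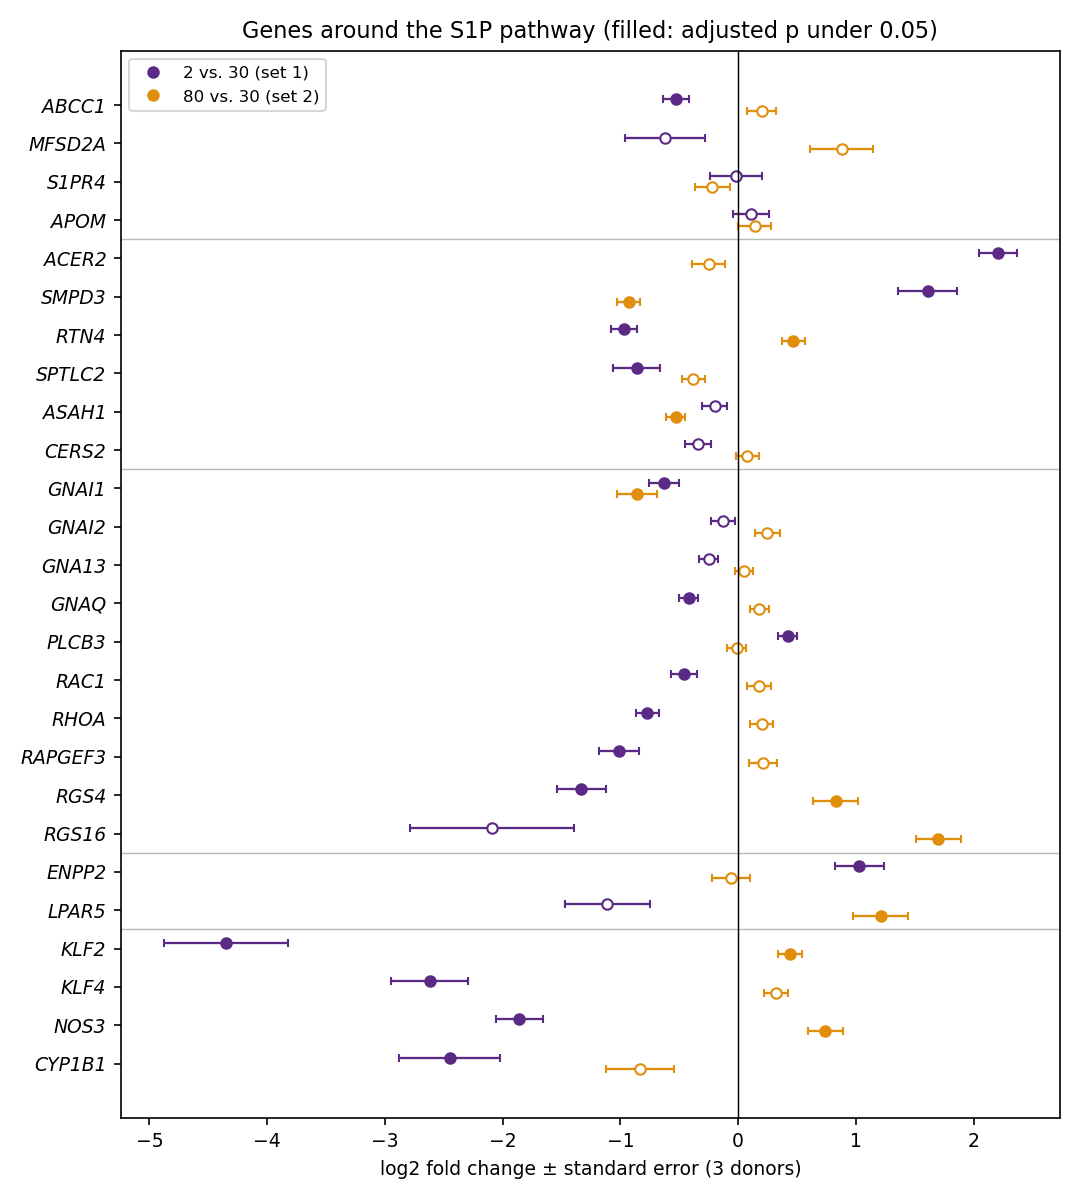
Log2 fold change with its standard error (3 pigs) at 2 and 80 dyne/cm2 vs. the matched controls for genes around the S1P pathway, from top to bottom other carriers and receptors, sphingosine supply, receptor coupling, lysophosphatidate and flow markers; filled symbols have an adjusted p under 0.05. RTN4 and RGS4 are filled below 0 at 2 dyne/cm2 and above 0 at 80 dyne/cm2, SMPD3 the other way round, and GNAI1 is filled below 0 in both; RGS4 at 80 dyne/cm2 is below 0 against the other control set.

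Of 5 flow markers listed, 4 were tested. All 4 fell at low WSS, beside 12.4% of all genes, and 2 rose at supra-high WSS, beside 4.36%. KLF2, a transcription factor induced by laminar flow, fell by 4.35 ± 0.53 on the log2 scale at 2 dyne/cm2 (adjusted p = 0.00906) and rose by 0.44 ± 0.10 at 80 dyne/cm2 (adjusted p = 0.0428). NOS3, the endothelial nitric oxide synthase, fell by 1.86 ± 0.20 (adjusted p = 0.00721) and rose by 0.74 ± 0.15 (adjusted p = 0.026). Neither rise passed against set 1 (adjusted p = 0.161 for KLF2 and 0.495 for NOS3). Both were also lost without the replicate block (adjusted p = 0.616 and 0.526), without replicate 2 (adjusted p = 0.152 and 0.0727) and without replicate 3 (adjusted p = 0.199 and 0.2). With dispersion from 12 libraries the adjusted p was 0.545 and 0.0629. KLF4 and CYP1B1 fell at low WSS, with values of -2.62 ± 0.33 and -2.45 ± 0.43, and did not pass at 80 dyne/cm2. The call for CYP1B1 was lost without the replicate block (-1.95, adjusted p = 0.247). Against set 1 the values for PLPP3 (-2.96) and SPHK1 (-2.70) lay near those of KLF4 and CYP1B1, though differences between genes were not tested. Against set 2 they were -1.89 for PLPP3 and -1.87 for SPHK1, beside -2.70 for KLF4 and -2.01 for CYP1B1.

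Markers of ECs and of other cell types also differed between the groups. The 7 matched endothelial markers summed to 4620 to 5650 CPM at 2 dyne/cm2, 6740 to 7850 in set 1, 6400 to 7520 in set 2 and 8250 to 8310 at 80 dyne/cm2, and none of them was at 0. Of these 7, 3 fell at low WSS (42.9%, beside 25.8% of all genes), namely PECAM1 (-0.71, adjusted p = 0.0346), ESAM (-0.56, adjusted p = 0.0179) and TEK (-2.95, adjusted p = 0.00479). CDH5 (-0.11), TIE1 (-0.18), ERG (-0.22) and KDR (-1.27) did not pass, with adjusted p from 0.0609 to 0.521. At supra-high WSS 1 of the 7 rose (KDR, 0.49, adjusted p = 0.0231), beside 4.36% of all genes.

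Of the fibroblast markers 5 of 6 were tested at low WSS, where 3 rose (60%, beside 13.4% of all genes). PDGFRB rose by 2.41 on the log2 scale (adjusted p = 0.00758), PDGFRA by 1.09 (adjusted p = 0.03) and COL1A2 by 0.96 (adjusted p = 0.0325). The sum of the 6 overlapped between groups, at 22 to 197 CPM at 2 dyne/cm2, 22.3 to 91.1 in set 1, 19.5 to 223 in set 2 and 12.3 to 115 at 80 dyne/cm2. At supra-high WSS 0 of 4 tested passed, beside 8.4% of all genes. The 3 matched red cell and platelet markers summed to 11.8 to 15.3 CPM at 2 dyne/cm2 and 3.51 to 4.56 in set 1, without overlap. Most of this was the platelet gene GP9, which rose by 1.82 (adjusted p = 0.00758), while HBB was at 0 throughout.

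The 4 lymphatic endothelial markers summed to 1.97 to 3.99 CPM at 2 dyne/cm2 and 1.36 to 4.17 in set 1, and FLT4, the 1 that was tested, rose by 1.42 (adjusted p = 0.0314). Leukocyte markers summed to 8.22 to 11.2 CPM at 2 dyne/cm2 and 15.2 to 22.7 in set 1, mostly CD68, which fell (-1.17, adjusted p = 0.00961), and CD14, while PTPRC, CD3E and LYZ had at most 3 reads in any library. Smooth muscle markers summed to 5.7 CPM or less in every library, with DES at 0 throughout. The part of these levels in the S1P results was not tested, and in bulk RNA fewer cells of a type and less RNA per cell cannot be told apart.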

How the data were processed

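RNA of 12 porcine EC cultures (3 pigs, 4 groups) was analysed from raw counts per gene that the authors deposited for 21153 Ensembl genes. According to the submitters' processing notes and the methods, reads were demultiplexed with CASAVA 1.8.2, mapped to Sscrofa11.1 with STAR 2.4, and unique alignments were counted over exons with featureCounts 1.4.6, so reads shared by paralogs were dropped. Symbols were matched for 14572 genes (68.9%), and positions are RefSeq gene spans.

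The test was the two-sided quasi-likelihood F test of edgeR 4.0.16 (R 4.3.3) after TMM scaling, with Benjamini-Hochberg adjustment. A gene was tested where 3 or more of the libraries in the comparison had 1 CPM or more; CPM use TMM factors over 12 libraries (0.954 to 1.047). Standard errors were derived from the F statistic as the absolute log2 fold change over its square root. The biological coefficient of variation was 15.5% in the low and 11.4% in the supra-high WSS comparison. The pig was a block, because source names give same-numbered libraries 1 donor code. Deviations from group means correlated at 0.67 to 0.88 in 18 same-numbered pairs and at -0.55 to -0.19 in 36 others. Since the deviations of the 3 libraries of a group sum to 0, the negative values follow in part from the centring. Passage and slide are not given per sample, and p-values rest on 3 pigs.

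The 10 genes, the 136 list entries (121 matched; the rest not analysed here) and the naming rule were chosen with earlier results of these data known. The rule names all 10 genes, list genes that passed with at least a 2-fold change, a few fixed genes whatever their values, and the 5 genes most like S1PR1. RTN4, GNAI1, GNAQ and PLCB3 did not meet this rule and were named with their values known. Scripts were tested on simulated data. Alternatives were relative log expression scaling, DESeq2 1.42.0, other filters (none, or 10 counts in every library), no replicate block, a robust fit, dispersion from 12 libraries, each pig left out, other control sets and a 2-fold threshold.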

Additional observations from a re-analysis of the deposited data

How the results depend on the processing

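Of 387 alternative values for the 9 genes, 343 kept their direction and their side of the threshold, 17 lost a call, 8 gained one and 19 changed sign. For the other named genes these numbers were 615, 74, 18 and 13 of 720. At 2 dyne/cm2 6 genes passed in every setting except 4 without the replicate block, 4 with a 2-fold threshold, and 4 to 6 with 1 pig left out. Without the replicate block 1244 of all genes passed, against 2895 with it. At 80 dyne/cm2 the count of 1 became 2 with DESeq2, where PLPP3 also passed, and 0 with no replicate block, the robust fit, dispersion from 12 libraries, the other control set or a 2-fold threshold, and ran from 0 to 2 with 1 pig left out. Between the control sets the count of 0 became 2 with DESeq2 and with no filter, and 0 to 2 with 1 pig left out. The difference between the responses gave 4 to 6 in all settings, 4 of them with no replicate block.

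The 9 genes changed sign as follows, the causes not being tested. At 2 dyne/cm2 S1PR2 was 0.37 with the other control set and 0.15 with both, and SGPL1 was 0.11 with the other set and -0.34 to 0.03 with 1 pig left out. At 80 dyne/cm2 with the other set S1PR1 was -0.06, S1PR2 -0.10, SPHK1 -0.44, SGPL1 -0.24 and PLPP3 -0.72, and with both sets SPHK1 was -0.02, SGPL1 -0.07 and PLPP3 -0.18. Between the sets, with 1 pig left out, SPHK2 ran from -0.12 to 0.10, SPNS2 from -0.27 to 0.07 and PLPP1 from -0.12 to 0.29. For the difference, with sets exchanged, S1PR2 was 0.48 and SGPL1 0.38, and SGPL1 was -0.45 to 0.01 with 1 pig left out. Of the other genes, MFSD2A at 2 dyne/cm2 was 0.84 with the other set and 0.11 with both, and S1PR4 was -0.20 to 0.22 with 1 pig left out. At 80 dyne/cm2 with the other set MFSD2A was -0.59, S1PR4 0.14, APOM -0.06, GNA13 -0.10 and RGS4 -0.42, and GNA13 was -0.02 with both. ENPP2 was 0.01 with no replicate block, and with 1 pig left out ENPP2 ran from -0.18 to 0.05, PLCB3 from -0.06 to 0.03 and SGMS1 from -0.01 to 0.09. Depth limits S1PR3, at 8 reads in all.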

Other observations

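Other enzymes that handle ceramide moved within the same list; they were named after their values had been seen. At 2 dyne/cm2 the alkaline ceramidase ACER3 fell by 0.61 ± 0.10 on the log2 scale (adjusted p = 0.017), from a mean of 68.4 to 44.4 CPM, so ACER2 and ACER3 were called with opposite signs. SGMS1, which makes sphingomyelin from ceramide, fell by 0.53 ± 0.09 (adjusted p = 0.0166). Their adjusted p without the replicate block was 0.162 and 0.0686. UGCG, which makes glucosylceramide from ceramide, passed in neither comparison, with values of 0.40 ± 0.22 (adjusted p = 0.23) and -0.35 ± 0.09 (adjusted p = 0.0584), but its difference between the responses to low and supra-high WSS passed at 0.76 ± 0.25 (adjusted p = 0.0376). CERT1, which carries ceramide to the Golgi for sphingomyelin synthesis, likewise passed in neither, and its difference was 0.46 ± 0.11 (adjusted p = 0.011). Against the other control set CERT1 had a value of 0 at 2 dyne/cm2 (adjusted p = 0.99) and of 0 at 80 dyne/cm2 (adjusted p = 0.994). The call for its difference thus rests on which control set is paired with which WSS. UGCG then had values of 0.59 (adjusted p = 0.0424) and -0.55 (adjusted p = 0.178). These differences were not recomputed with the sets exchanged.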
